A study of Mus musculus with 14 samples.

Results

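The mitochondrial respiratory chain passes electrons from NADH and succinate to oxygen through complexes I to IV, and ATP synthase, or complex V, uses the resulting proton gradient to make ATP. Most subunits of these complexes are encoded in the nucleus and a few in mitochondrial DNA, so that a working chain draws on both genomes. The nuclear genes were collected by symbol (Nduf followed by a, b, c, s or v, Sdha to Sdhd, Uqcr, Cox followed by 4 to 8, and Atp5) from the 23284 genes listed in each deposited expression table. In all, 90 genes matched, and the 82 that reached 5 FPKM (fragments per kilobase of exon per unit of mapped reads, a measure scaled to transcript length and library size) in at least 1 library were followed as members. Of the 82 members, 40 belonged to complex I, 4 to complex II, 8 to complex III, 13 to complex IV and 15 to complex V, and 2 (Cox4nb and Atp5sl) only share a prefix with them. Subunits made up 75 of the 82. The other 7 were the complex I assembly factors Ndufaf1, Ndufaf2, Ndufaf3 and Ndufaf4, the supercomplex factor Cox7a2l, Cox4nb and Atp5sl. The 8 matching genes below 5 FPKM in every library were Cox4i2, Cox6a2, Cox6b2, Cox7b2, Cox8b, Cox8c, Ndufa4l2 and Atp5s, and none of the 13 genes encoded by mitochondrial DNA was among the genes listed (0 of 13).

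mRNA was measured in EpH4 cells, a mouse mammary gland epithelial cell line kept in 10% fetal bovine serum, and in EpRas cells, the same line transformed with H-Ras G12V and kept in 4% serum, so that the transgene and the serum cannot be told apart between the lines. Cells were left untreated or received 1 ng/ml TGF-β3 (TGF-β below) for 48 h, with 2 biological replicate libraries in each of the 4 groups. A further 6 libraries came from EpRas cells that carried a control siRNA (siNC) or either of 2 siRNA pairs against the ETS family transcription factors Etv4 and Etv5, each with and without TGF-β and with 1 library per condition. The untransfected and the transfected libraries were processed and quantified separately, and differences were tested only within each set.

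The relative depth of the libraries, read from the steps between low FPKM values, spanned 0.609 to 1.36 among the untransfected libraries and 1 to 1.74 among the transfected ones, which, with annotated transcript lengths, put the median member at about 461 to 1035 and 1223 to 1655 reads, respectively. Of 8 epithelial markers, 7 reached 5 FPKM (Krt8, Krt18, Krt19, Krt7, Krt14, Epcam and Cdh1), though Krt19 was at 0 in all 4 EpH4 libraries, while no marker of leukocytes, endothelium or adipocytes did. Fibroblast markers summed to 4.61 to 239 FPKM in the untransfected libraries, where Lum was at 0 throughout and the highest sums were those of EpH4 cells with TGF-β, and their part in the results was not tested. Some libraries stood apart in the members. In replicate 1 of EpRas cells with TGF-β, 6 members (Ndufb11, Ndufs5, Ndufa4, Atp5e, Atp5h and Atp5l) lay more than 1.5-fold below every other untransfected library. In the untreated siNC library, 30 of 82 members were higher than in all 5 other transfected libraries, 7 of them by more than 1.5-fold (Ndufa10, Ndufb4, Ndufs4, Ndufv3, Ndufaf3, Atp5e and Atp5l), and the treated siNC library was the lowest of the 6 for 30 of 82. The median fold between the replicates of a group was 1.09 to 1.24 over the members, and single members differed by up to 7.41-fold (Ndufs5 in EpRas cells with TGF-β).

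Nuclear respiratory chain promoters are known for binding sites of nuclear respiratory factor 1 (NRF1), of YY1 and of ETS family factors such as GABP, and Etv4 and Etv5 are of the ETS family. Promoter sequences from RefSeq (GRCm38.p6, 250 bases before to 50 after each transcription start) were matched by symbol and position to 70 of the 82 members and searched on both strands. The ETS core CCGGAAG was found in 17 of the 70 members (24.3%), against 9.93% of the 27025 genes in the promoter table and 22.7% of the 6523 of them that were tested here. The NRF1 core GCGCATGCG was found in 9 members (12.9%, against 1.95% of all genes and 4.72% of those tested), and the YY1 core AAGATGGC in 11 (15.7%, against 3.19% and 5.78%). Thus the ETS core was about as common in the members as in the other genes tested, and the NRF1 and YY1 cores were more common. A match is a run of letters and not a measured binding site.

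The 250 bases before the start are shown for 5 members named in the results below, picked as examples and not as a sample of the members. They run 5′ to 3′ along the gene's strand, with matches to the 3 cores in capitals (on either strand, an NRF1 match and its overlapping reverse forming 1 run). Ndufv3, a complex I accessory subunit, was the member called with the Etv4/5 siRNAs and held none of the 3 cores (chr17:31519865-31520114, plus strand). Ndufs3, a core subunit of complex I higher in EpRas cells, held the ETS core (chr2:90904722-90904971, minus strand), with a further match just past the start. Cox6b1, a cytochrome c oxidase subunit whose TGF-β libraries lay below the untreated ones in both lines and below their partners under each siRNA, held the ETS core (chr7:30626115-30626364, minus strand). Ndufa8, higher in EpRas cells without TGF-β, held the NRF1 core at its start (chr2:36049339-36049588, minus strand). Cox6a1, lower in EpRas cells without TGF-β, held both (chr5:115348959-115349208, minus strand).
Ndufv3: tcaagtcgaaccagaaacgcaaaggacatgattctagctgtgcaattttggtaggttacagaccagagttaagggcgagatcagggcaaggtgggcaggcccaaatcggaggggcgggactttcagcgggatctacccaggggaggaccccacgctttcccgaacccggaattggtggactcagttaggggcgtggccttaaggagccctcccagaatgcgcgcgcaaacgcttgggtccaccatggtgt
Ndufs3: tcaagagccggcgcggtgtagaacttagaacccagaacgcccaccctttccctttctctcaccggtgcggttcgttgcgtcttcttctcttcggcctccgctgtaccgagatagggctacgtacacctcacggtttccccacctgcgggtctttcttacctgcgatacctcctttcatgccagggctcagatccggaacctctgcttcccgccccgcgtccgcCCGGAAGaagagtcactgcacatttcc
Cox6b1: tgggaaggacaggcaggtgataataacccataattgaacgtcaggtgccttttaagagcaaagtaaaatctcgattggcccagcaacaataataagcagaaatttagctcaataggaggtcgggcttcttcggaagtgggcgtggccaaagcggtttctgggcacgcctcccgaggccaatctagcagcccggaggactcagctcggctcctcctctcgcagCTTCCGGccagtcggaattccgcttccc
Ndufa8: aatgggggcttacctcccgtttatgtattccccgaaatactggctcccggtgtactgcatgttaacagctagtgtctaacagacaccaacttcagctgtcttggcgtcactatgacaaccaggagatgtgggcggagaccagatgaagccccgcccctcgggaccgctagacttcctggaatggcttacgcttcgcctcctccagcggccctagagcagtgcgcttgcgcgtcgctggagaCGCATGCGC
Cox6a1: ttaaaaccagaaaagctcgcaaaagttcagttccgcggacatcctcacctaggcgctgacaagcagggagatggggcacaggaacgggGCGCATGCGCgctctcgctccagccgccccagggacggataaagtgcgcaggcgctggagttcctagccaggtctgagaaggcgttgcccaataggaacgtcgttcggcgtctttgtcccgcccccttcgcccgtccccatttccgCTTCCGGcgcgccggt

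The expression levels of the members spread widely within each complex. Averaged over the 8 untransfected libraries, the subunits of complex I ranged from 30.5 to 655 FPKM with a median of 146, those of complex II from 76.6 to 148 with a median of 86.7, those of complex III from 56.6 to 913 with a median of 279, those of complex IV from 2.56 to 1161 with a median of 247, and those of complex V from 77.2 to 1111 with a median of 308. The most abundant member of each complex was Ndufb8 (655 FPKM, an accessory subunit) in complex I, Sdhb (148 FPKM, the iron-sulfur subunit) in complex II, Uqcrq (913 FPKM) in complex III, Cox6a1 (1161 FPKM) in complex IV and Atp5b (1111 FPKM, the catalytic β subunit) in complex V. The assembly factors of complex I were low, from 8.93 FPKM for Ndufaf4 to 38.5 FPKM for Ndufaf2. These levels are per transcript length, but short transcripts dominate the set: the median member had an annotated transcript of 891.5 bases, and 45 of 82 (54.9%) were no longer than 1000 bases, against 2823 bases and 8.08% over all genes tested.

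In the untransfected libraries the ubiquitous form carried nearly all of the expression in 5 pairs of isoforms. Cox4i1 lay at 642 to 1368 FPKM in the untransfected libraries, and Cox4i2, known as the lung-rich form, did not exceed 0.532 FPKM. Likewise Cox6a1 lay at 772 to 1725 FPKM, while Cox6a2, the heart and muscle form, reached at most 0.867 FPKM there. Cox6b1 was at 240 to 328 FPKM, and Cox6b2, the testis form, was listed at 0 in all 8. Cox8a was at 469 to 889 FPKM, with Cox8c at 0, and Ndufa4, now counted as a complex IV subunit, was at 323 to 1554 FPKM with Ndufa4l2 at 0. The 3 genes for the same c-ring protein of ATP synthase were all expressed, with means of 77.2 FPKM for Atp5g1, 195 for Atp5g2 and 445 for Atp5g3.

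The comparison of EpRas with EpH4 cells asked how the members differed between the transformed and the parental line. Without TGF-β, 8 of 82 members were higher and 3 lower in EpRas cells (limma, adjusted p under 0.05), where 8.45% of the 9100 genes tested were higher and 9.11% lower, so that the share called among members (13.4%) was no larger than among genes in general. With TGF-β, 7 members were higher and 3 lower, against 8.92% and 12.3% of all genes. The median log2 fold change of the members was 0.14 without and 0.11 with TGF-β, against 0.00 and -0.01 over all genes, and 53 and 52 of 82 members had positive values. The first median was 0.04 without EpRas replicate 1, and the second was 0.04 with the length trend of each library removed. Epithelial markers also differed between the lines, with medians of -0.50 and -2.15 over the 7 tested, of which Krt14 and Cdh1 were called lower in EpRas cells without TGF-β and Krt7, Krt14, Epcam and Cdh1 with it, and Krt19 higher in both, and their part in the members' values was not tested. In both comparisons, and in the same direction, 6 members were called (7.32%, against 11.6% of all genes), a share below that of genes in general. They were Ndufs3, Ndufaf3, Sdhb, Uqcr10 and Atp5g3 upward and Atp5j2 downward.

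Atp5g3, the c-ring gene with the highest level, was at 318 and 318 FPKM in EpH4 cells and at 695 and 554 FPKM in EpRas cells, and at 280.1 and 267 FPKM against 639.8 and 490 FPKM with TGF-β. The lines did not overlap in either condition, and Atp5g3 was 1.96-fold higher in EpRas cells without TGF-β (log2 fold change 0.96 ± 0.19 (SE), adjusted p = 0.0136) and 2.06-fold higher with TGF-β (1.03 ± 0.19, adjusted p = 0.00803). Ndufs3, a core subunit of the matrix arm of complex I, was at 43.3 and 44.4 FPKM in EpH4 cells and at 87.8 and 73.0 FPKM in EpRas cells, and with TGF-β at 35.1 and 41.4 against 61.0 and 95.4 FPKM. All 4 EpRas libraries lay above all 4 EpH4 libraries, although the treated EpRas replicates themselves were far apart. Its fold was 1.83 without TGF-β (adjusted p = 0.0437) and 2.04 with TGF-β (adjusted p = 0.0230).

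Sdhb, which hands electrons from succinate to ubiquinone, was at 126 and 124 FPKM in EpH4 and 183 and 191 FPKM in EpRas cells, and with TGF-β at 108 and 117 against 157 and 179.8 FPKM. It was 1.5-fold higher in both comparisons (log2 fold change 0.58 ± 0.15, adjusted p = 0.0344 and 0.0297), while the other subunits of complex II did not pass the test, with values of 0.01 and -0.01 for Sdha, 0.43 and 0.30 for Sdhc, and -0.08 and 0.18 for Sdhd without and with TGF-β. Uqcr10, a small subunit of complex III, was at 269 and 340.1 FPKM in EpH4 and 465 and 491 FPKM in EpRas cells, and with TGF-β at 232 and 216 against 489 and 407 FPKM, so that the lines again did not overlap (adjusted p = 0.0423 and 0.00729). Ndufaf3, needed to assemble complex I, was lower in level, at 9.44 and 9.57 FPKM in EpH4 and 20.3 and 17.5 FPKM in EpRas cells, and at 7.63 and 11.4 against 18.8 and 18.6 FPKM with TGF-β. It was about 1.99-fold and 1.97-fold higher, with adjusted p = 0.0192 and 0.0148.

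Atp5j2, the f subunit in the membrane part of ATP synthase, moved the other way. It was at 858 and 1243 FPKM in EpH4 and 452 and 458 FPKM in EpRas cells, and at 1034 and 845 against 464 and 496 FPKM with TGF-β. The EpRas libraries all lay below the EpH4 libraries, with log2 fold changes of -1.18 ± 0.21 (adjusted p = 0.00911) and -0.96 ± 0.21 (adjusted p = 0.0165). Atp5g3 and Atp5j2, which encode parts of the same membrane sector, thus differed in opposite directions between the lines, as the plot of called members by library shows.

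**Figure D1:**
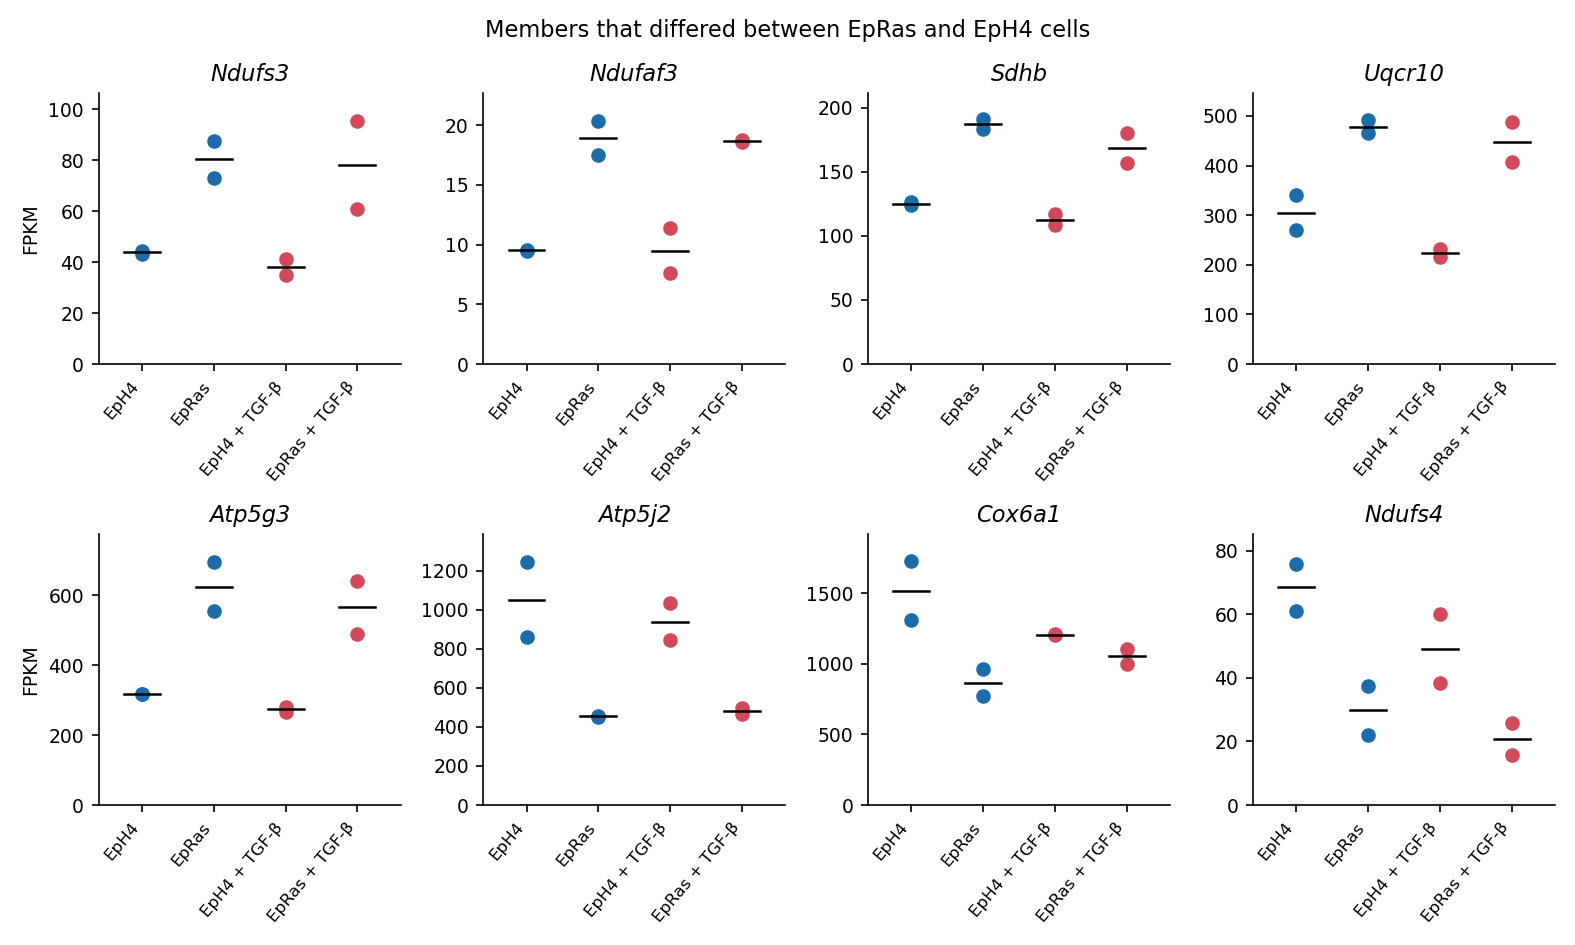
Expression level in FPKM (vertical axis, from 0) of 8 members called between EpRas and EpH4 cells with or without TGF-β, with a point for each library (2 per group, blue without and red with TGF-β) and a line at the group mean. Ndufs3, Ndufaf3, Sdhb, Uqcr10 and Atp5g3 were higher in EpRas cells in both conditions, and Atp5j2 was lower.

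Other members were called in only 1 of the comparisons, which does not show that the line effect differed between conditions. Without TGF-β, Cox6a1 was lower in EpRas cells (962 and 772 FPKM against 1309 and 1725 FPKM, log2 fold change -0.80, adjusted p = 0.0285, and -0.20 with TGF-β), as was the assembly factor Ndufaf2 (24.5 and 27.9 against 41.6 and 44.3 FPKM, -0.69, adjusted p = 0.0262). Ndufb10 was higher (258 and 217 against 121 and 158 FPKM, 0.77, adjusted p = 0.0280), and so was Ndufa8 (201 and 178 against 116 and 121 FPKM, 0.67, adjusted p = 0.0224, and 0.27 with TGF-β). With TGF-β, the lower members were Ndufs4, an accessory subunit important for complex I stability (15.8 and 25.7 FPKM in EpRas against 38.4 and 60.1 FPKM in EpH4 cells, -1.21, adjusted p = 0.0453), and Ndufa1 (51.7 and 36.8 against 74.4 and 83.2 FPKM, -0.84, adjusted p = 0.0215). The F1 subunits Atp5a1 (312 and 328 against 219 and 240.5 FPKM, 0.48, adjusted p = 0.0492) and Atp5c1 (200.6 and 177 against 112 and 126 FPKM, 0.67, adjusted p = 0.0337) were higher. None of these groups overlapped within its comparison.

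The muscle isoform Cox7a1 was the remaining call. It was listed at 0 and 0 FPKM in untreated EpH4 cells and at 2.86 and 1.92 FPKM with TGF-β, and in EpRas cells at 5.08 and 5.46 FPKM without and 3.61 and 1.55 FPKM with TGF-β. It passed the 5 FPKM limit in this set only through the untreated EpRas libraries, where it was high. The steps of its values matched whole reads (within 0.05), and amounted to 0 and 0, 2 and 2, 3 and 6, and 3 and 1 reads in the 4 groups in that order, as the smallest whole numbers in these ratios. The estimate from annotated transcript length, used above for the median member, gave 0 to 12.7 reads for the same libraries, so that the counts are approximate. No fold is therefore given. The other family members, Cox7a2 and Cox7a2l, were at 98.4 to 182.1 and 76.9 to 132 FPKM. Of 4 muscle markers, Acta1 was the one to reach 5 FPKM, with 0 to 0.732 FPKM in untreated and 2.45 to 6.22 FPKM in treated untransfected libraries. In the transfected cells Acta1 was at 0.656, 7.16 and 0.516 FPKM under siNC, pair 1 and pair 2 and at 1.13, 68.3 and 39.4 FPKM with TGF-β, so that it was not highest in the treated siNC library, where Cox7a1 was (23.4 FPKM). Its part in the Cox7a1 values was not tested.

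These calls rested on few libraries. The count without TGF-β went from 11 members to 1 without EpRas replicate 1, 2 without EpRas replicate 2, 3 or 4 without either EpH4 library and 4 without either treated EpH4 library. With TGF-β it went from 10 to 0 and 1 without the treated EpH4 replicates 1 and 2, and to 5 without the treated EpRas replicate 1. No called member changed sign in the fits that left out a library.

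TGF-β treatment was compared in EpH4 cells, in EpRas cells and across the 3 siRNA conditions, which makes 3 sets of libraries with no library in common. Few members passed the test in any of them. In EpH4 cells Ndufa6 was lower and Cox7a1, the gene with 0 to 6 reads, was higher (2 of 82, where 9.40% of all genes were called in either direction). In EpRas cells Atp5g1 was lower (1 of 82, against 3.82% of all genes). Over the siRNA conditions Cox7a2 and Ndufc1 were lower (2 of 82, against 4.17%). The members' shares were 2.44%, 1.22% and 2.44%, below those of all genes.

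The members nevertheless leaned to 1 side. Values below 0 were found for 69 of 82 members (84.1%) in each of the 3 comparisons, against 51.6%, 52.2% and 49.7% of all genes tested. The median log2 fold change with TGF-β was -0.26 in EpH4 cells, -0.28 in EpRas cells and -0.27 over the siRNA conditions, against -0.02, -0.02 and 0.00 over all genes, and -0.23 over the siRNA conditions without both siNC libraries. In 53 members (64.6%) the value was below 0 in all 3, against 26.4% of the 8681 genes tested in both tables. Cell type markers also moved with TGF-β. The 7 epithelial markers tested had medians of 0.78, -0.40 and -0.01 in EpH4 cells, EpRas cells and the siRNA conditions. Krt14 and Cdh1 were called higher in EpH4 cells, and Krt7 and Krt14 lower in EpRas cells. Of the fibroblast markers, Col1a1 and Col1a2 were called higher in EpH4 cells and Col1a1 over the siRNA conditions. The part of these markers in the members' values was not tested. The complexes were not tested against each other. In EpH4 cells the medians were -0.28 for complex I, -0.22 for complex II, -0.31 for complex III, -0.27 for complex IV and -0.22 for complex V. In EpRas cells they were -0.29, -0.12, -0.17, -0.19 and -0.32, and over the siRNA conditions -0.27, -0.28, -0.30, -0.20 and -0.27 in the same order.

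**Figure D2:**
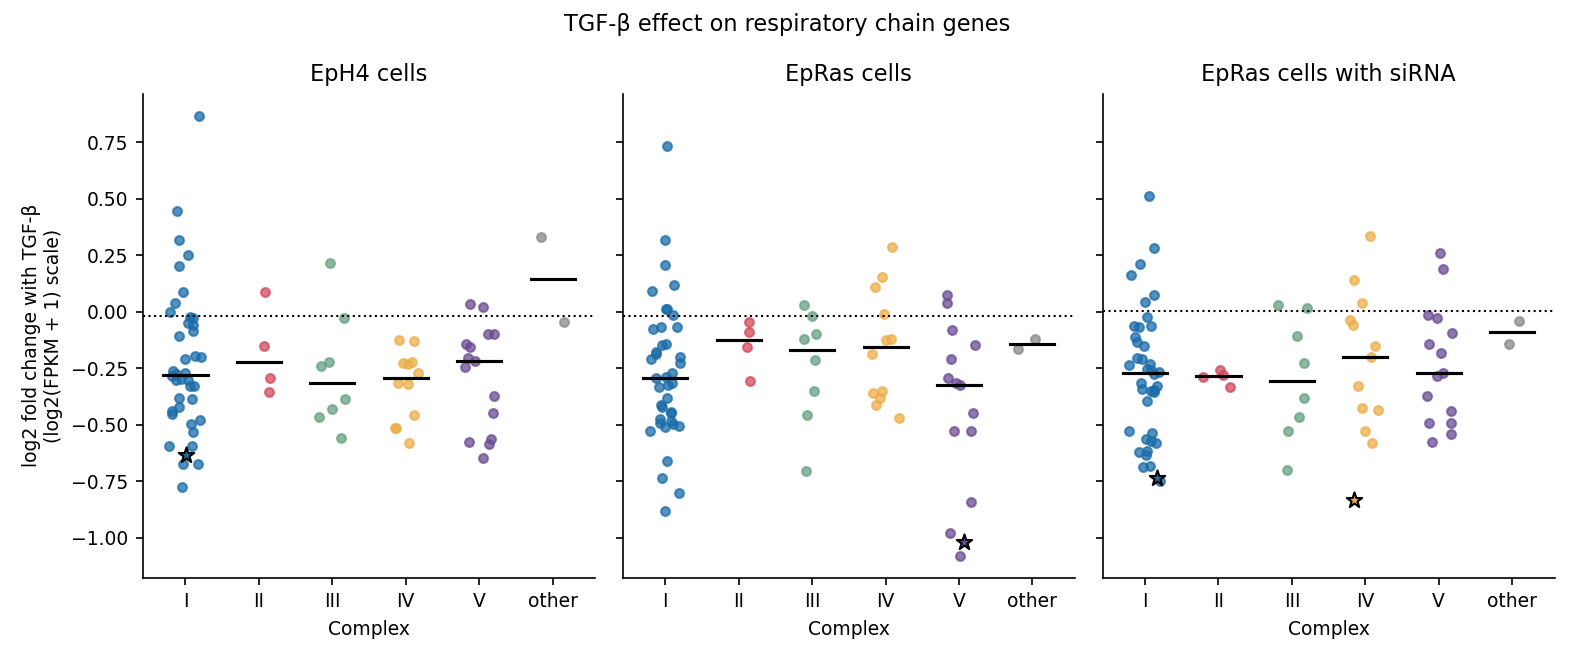
Log2 fold change with TGF-β (vertical axis, log2(FPKM + 1) scale) of the members by complex (horizontal axis) in EpH4 cells, EpRas cells and EpRas cells with siRNA. Each point is a member, stars are members past an adjusted p of 0.05, bars are medians of a complex and the dotted line is the median of all genes tested; Cox7a1 is left out of the panels without siRNA, medians included, because of its few reads. Medians of complexes I to V lie between -0.12 and -0.32.

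Summed over all subunits, the members took up 3.71% and 3.92% of all FPKM in EpH4 cells and 3.21% and 3.27% with TGF-β. In EpRas cells the sums were 3.76% and 3.94% without and 3.34% and 3.20% with TGF-β. In the transfected cells the share was 4.28% without and 3.64% with TGF-β under siNC, 3.78% and 3.36% under pair 1, and 3.88% and 3.34% under pair 2. Every treated library therefore lay below its untreated counterparts, as the plot of summed levels by library shows. For complex I and complex V, treated libraries lay below the untreated ones in both lines and below their partners under each siRNA, although the complex V share of the treated siNC library slightly exceeded that of the untreated pair 2 library. The complex I share was 0.996% and 1.09% in EpH4 cells and 0.858% and 0.907% with TGF-β, 1.13% and 1.12% against 0.980% and 0.927% in EpRas cells, and 1.23%, 1.12% and 1.09% against 0.950%, 0.938% and 0.946% in siNC, pair 1 and pair 2. The complex V share was 1.10% and 1.23% against 1.01% and 1.04% in EpH4 cells, 1.23% and 1.24% against 0.922% and 0.991% in EpRas cells, and 1.498%, 1.17% and 1.15% against 1.15%, 1.11% and 1.04% in the siRNA conditions. The sums of complexes II, III and IV overlapped between treated and untreated libraries in at least 1 of the lines.

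**Figure D3:**
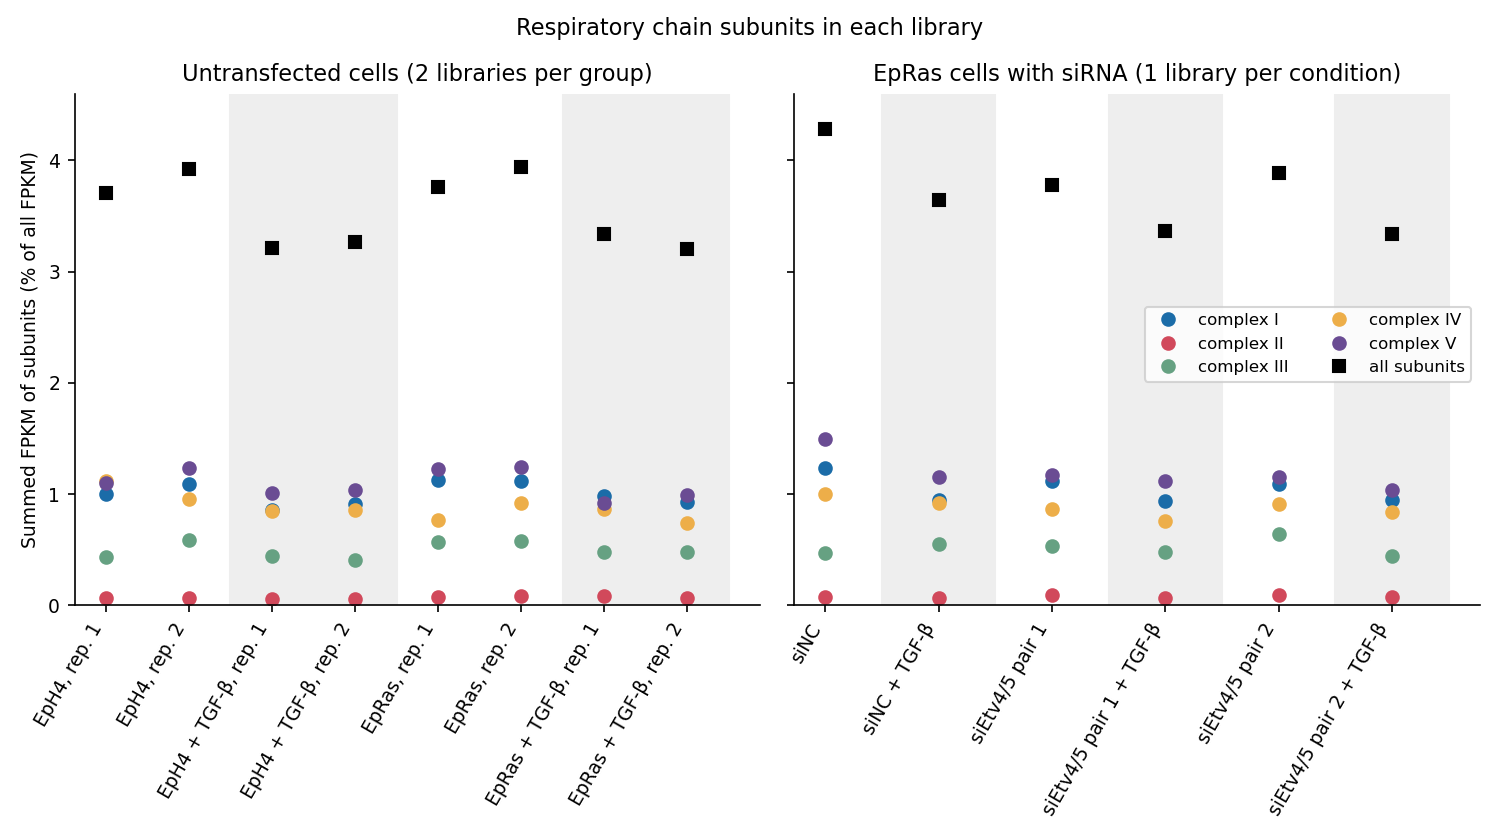
Summed FPKM of the subunits of each complex and of all subunits, as a percentage of all FPKM (vertical axis, from 0), in each of the 8 untransfected and 6 transfected libraries, with TGF-β-treated libraries shaded. The sum over all subunits lies at 3.71% to 4.28% in untreated and 3.20% to 3.64% in treated libraries.

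Member by member, both treated libraries lay below both untreated libraries for 39 of 82 members (47.6%) in EpH4 cells, against 30.4% of all genes, and for 33 (40.2%) in EpRas cells, against 20.9%. In 37 members (45.1%) the treated library lay below its partner in all 3 siRNA conditions, against 20.7% of all genes. Meeting this in all 3 sets were 10 members (12.2%, against 6.68% of all genes), none of which passed the test on its own. They were Ndufs1, Ndufs8, Ndufa10 and Ndufc2 of complex I, Uqcrfs1 of complex III, Cox5b, Cox6b1 and Cox8a of complex IV, and Atp5d and Atp5f1 of complex V.

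Cox8a, the most abundant of these, was at 663 and 706 FPKM in EpH4 cells and 469 and 529.9 FPKM with TGF-β, at 819 and 889 against 710.3 and 605 FPKM in EpRas cells, and at 773, 799.5 and 786 FPKM against 515, 529 and 535 FPKM under siNC, pair 1 and pair 2. Its treated level was 0.730, 0.770 and 0.669 of the untreated level in these sets (adjusted p = 0.132, 0.300 and 0.0722). Uqcrfs1, the Rieske iron-sulfur protein of complex III, was at 115 and 107 against 84.9 and 84.3 FPKM in EpH4 cells, at 109 and 133 against 88.4 and 87.0 FPKM in EpRas cells, and at 126, 136 and 146 FPKM against 70.7, 77.1 and 106 FPKM in the siRNA conditions. No treated library overlapped with its untreated counterparts (log2 fold changes -0.39, -0.46 and -0.70, adjusted p = 0.182, 0.206 and 0.0647). Ndufs8, an iron-sulfur core subunit of complex I, had treated levels of 0.738, 0.803 and 0.847 of the untreated ones.

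The assembly factor Ndufaf2 lay higher with TGF-β in EpRas cells (24.5 and 27.9 against 48.9 and 40.0 FPKM) and in all 3 siRNA conditions (12.1, 27.7 and 25.9 against 24.1, 36.9 and 29.8 FPKM), but not in EpH4 cells (41.6 and 44.3 against 39.9 and 41.1 FPKM), and the difference between the lines did not pass the test (adjusted p = 0.241).

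Among the members that did pass, Atp5g1, another c-ring gene (chr11:96068852-96075670, minus strand, GENCODE annotation of GRCm38), was at 121 and 113 FPKM in EpRas cells and 50.1 and 65.7 FPKM with TGF-β (log2 fold change -1.02 ± 0.20, adjusted p = 0.0369). In EpH4 cells it was at 89.2 and 71.6 against 48.5 and 57.8 FPKM (-0.58, adjusted p = 0.125). It was at 120.3 against 88.8 FPKM under siNC and 141 against 124 under pair 1, but at 103 against 131 FPKM under pair 2. Ndufa6 was at 155 and 189 FPKM in EpH4 cells and 109.9 and 111 FPKM with TGF-β (-0.63 ± 0.16, adjusted p = 0.0476). Cox7a2 was at 183, 177 and 169 FPKM under siNC, pair 1 and pair 2 and at 88.1, 98.7 and 110.1 FPKM with TGF-β (-0.83 ± 0.15, adjusted p = 0.0480). Ndufc1 was at 198, 172 and 159.8 FPKM and at 109.5, 108 and 97.8 FPKM with TGF-β (-0.74 ± 0.13, adjusted p = 0.0483). Each of these calls lay near the threshold and was lost in some fits that left out a library or a condition. The Ndufa6 call ended without any EpH4 library of either treatment or any untreated EpRas library (adjusted p up to 0.261), the Atp5g1 call without any library but the treated EpRas replicate 2 (up to 0.225), and the calls of Cox7a2 and Ndufc1 without any of the 3 siRNA conditions (up to 0.289).

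Within complex II the values were small. With TGF-β, Sdha had log2 fold changes of -0.29, -0.31 and -0.29, Sdhb of -0.15, -0.16 and -0.26, Sdhc of 0.09, -0.04 and -0.33, and Sdhd of -0.35, -0.09 and -0.28 in EpH4 cells, EpRas cells and the siRNA conditions. None passed the test.

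Related gene groups were read from lists in the same fits. The 13 enzymes of the citric acid cycle had medians of -0.21, -0.16 and -0.10 in EpH4 cells, EpRas cells and the siRNA conditions, with 13, 8 and 13 of 13 below 0 and none called. For 75 to 76 mitochondrial ribosomal proteins the medians were -0.31, -0.16 and -0.18, with 2, 0 and 0 called lower. For 12 complex IV assembly factors they were -0.15, -0.12 and -0.19, and for the 7 complex I assembly factors outside the members -0.47, -0.07 and -0.29. Other lists did not lean lower in EpRas cells. The 6 further ATP synthase subunits and assembly factors had medians of -0.24, 0.07 and -0.32 with 6, 2 and 6 of 6 below 0, the 3 complex II assembly factors -0.35, 0.06 and -0.10 with 3, 1 and 3 of 3 below 0, and the 4 further complex III genes -0.24, -0.04 and -0.07 with 4, 2 and 2 of 4 below 0. The 16 regulators of mitochondrial gene expression had medians of -0.19, 0.09 and -0.05 with 12, 6 and 10 of 16 below 0. None of the genes in these 6 lists was called. The 7 electron carriers, cytochrome c among them, had medians of -0.46, -0.10 and -0.10, with Sqrdl called lower in EpH4 cells. Outside mitochondria, 80 cytosolic ribosomal proteins had medians of -0.33, -0.27 and -0.09, and 15 glycolytic enzymes of -0.40, -0.46 and -0.38, so that values below 0 also prevailed in these lists outside mitochondria. Of the glycolytic enzymes, Pfkl, Ldha and Ldhb in EpH4 and Ldhb in EpRas cells were called lower.

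Transcript length moved with the TGF-β effect over all genes. Genes with transcripts up to 1000 bases had medians of -0.15, -0.15 and -0.14 in the 3 sets, and those over 1000 bases of -0.01, -0.01 and 0.01. Among the members, the 45 short ones had medians of -0.23, -0.29 and -0.27, and the 37 longer ones of -0.32, -0.21 and -0.27, with 32, 32 and 35 of 37 below 0 against 50.7%, 51.3% and 48.3% of all genes over 1000 bases. All 11 members over 2000 bases lay below 0 in the siRNA conditions, with 9 and 10 of 11 in EpH4 and EpRas cells. With the length trend of each library removed, the members' medians were -0.14, -0.19 and -0.19. The counts of members with every treated library below were then 27 (32.9%, against 30.1% of all genes) in EpH4 cells, 24 (29.3%, against 20.8%) in EpRas cells and 37 (45.1%, against 21.9%) in the siRNA conditions, so that the EpH4 share was near that of all genes.

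**Figure D4:**
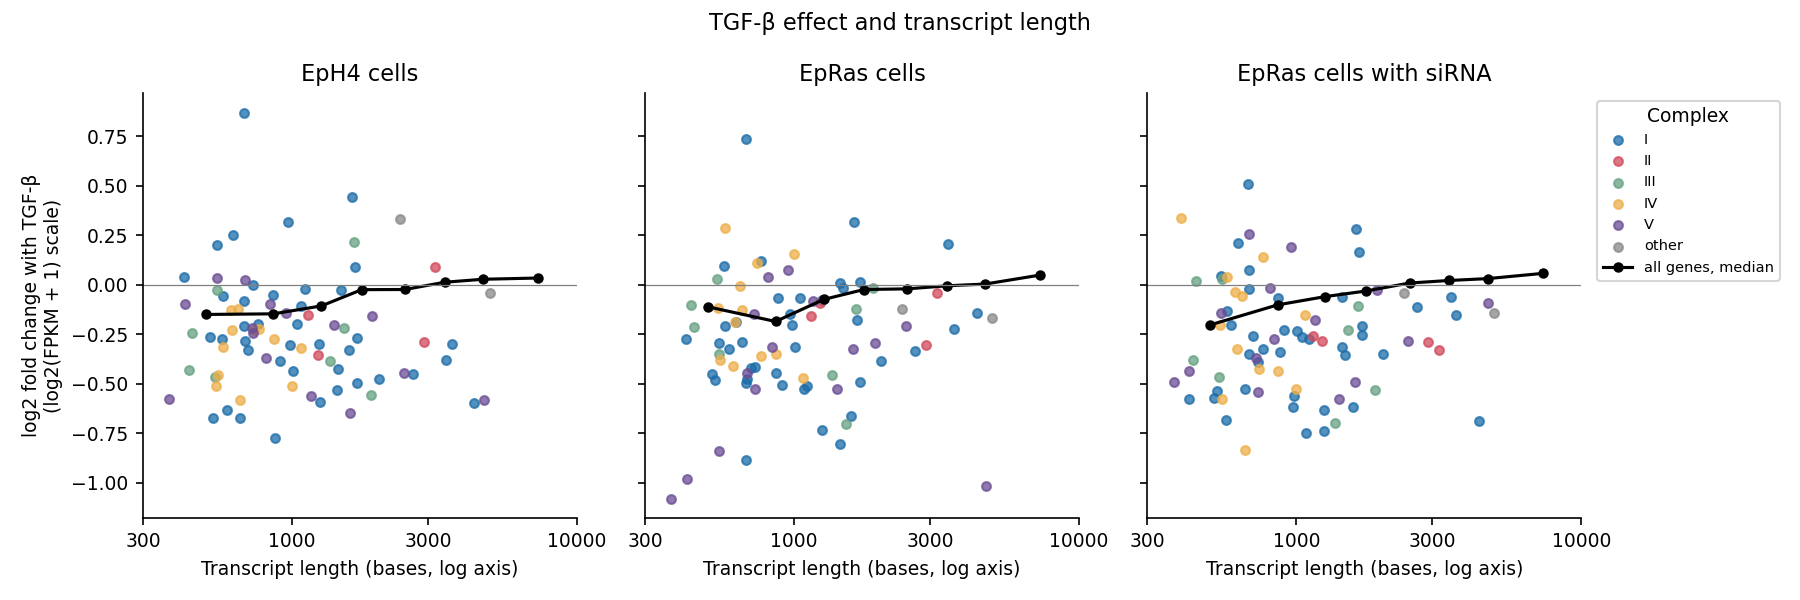
Log2 fold change with TGF-β (vertical axis, log2(FPKM + 1) scale) of the members against annotated transcript length in bases (horizontal log axis), with the median of all genes tested in 8 length classes (black line). The black line lies below 0 for short transcripts, and the members' medians are -0.21 to -0.32 in both length classes; Cox7a1 is left out of the first and second panels because of its few reads.

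The interaction term asked whether the TGF-β effect differed between the lines. Cox7a1 was the sole member called (adjusted p = 0.0371, where 0.802% of all genes were called), and it is the gene with 0 to 6 reads described above. The call was absent in most other fits and, by construction, without that gene. The median interaction of the members was -0.04, against -0.03 over all genes, and changed sign with single libraries, from -0.09 without the treated EpH4 replicate 1 to 0.08 without the treated EpRas replicate 1, and no difference in response between EpH4 and EpRas cells was detectable for the other 81 members at this number of libraries.

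The siRNA comparison asked whether loss of Etv4 and Etv5 changed the members in EpRas cells. The targets were lower with both pairs. Etv4 was at 57.4 FPKM under siNC, 11.6 under pair 1 and 27.9 under pair 2, and with TGF-β at 64.3, 12.6 and 18.9 FPKM (log2 fold change -1.80 ± 0.36, adjusted p = 0.0606). Etv5 was at 8.85, 1.61 and 1.26 FPKM and with TGF-β at 5.34, 1.24 and 1.203 FPKM (-1.77 ± 0.18, adjusted p = 0.0205). Each condition had 1 library, so that the 4 libraries with Etv4/5 siRNAs were set against the 2 with siNC. The error held the spread between pairs and any difference in TGF-β effect between the siRNA conditions.

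Of the 82 members, 1 was called (1.22%, against 2.12% of all genes), and the median log2 fold change was -0.01, with 42 of 82 below 0. This was Ndufv3, which encodes an accessory subunit beside the NADH-oxidizing site of complex I (chr17:31520115-31531331, plus strand). Its level was 302.7 FPKM under siNC, 86.6 under pair 1 and 109 under pair 2, and with TGF-β 152, 67.1 and 76.1 FPKM. All 4 knockdown libraries lay below both siNC libraries, at 28.6% and 35.9% of siNC without TGF-β and at 44.1% and 50.0% with it (log2 fold change -1.36 ± 0.20, adjusted p = 0.0362). In untransfected EpRas cells, quantified apart, Ndufv3 was at 145 and 92.0 FPKM without and 82.5 and 64.1 FPKM with TGF-β, closer to the knockdown libraries than to the untreated siNC library. The call was lost when pair 1 (adjusted p = 0.183) or pair 2 (adjusted p = 0.0726) was left out. The neighbouring subunits of the same site did not pass the test. Ndufv1 was at 212, 338 and 204 FPKM and with TGF-β at 189, 294 and 371 FPKM (adjusted p = 0.264), and Ndufv2 at 62.0, 71.8 and 56.0 FPKM and with TGF-β at 48.9, 62.8 and 52.2 FPKM (adjusted p = 0.702).

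**Figure D5:**
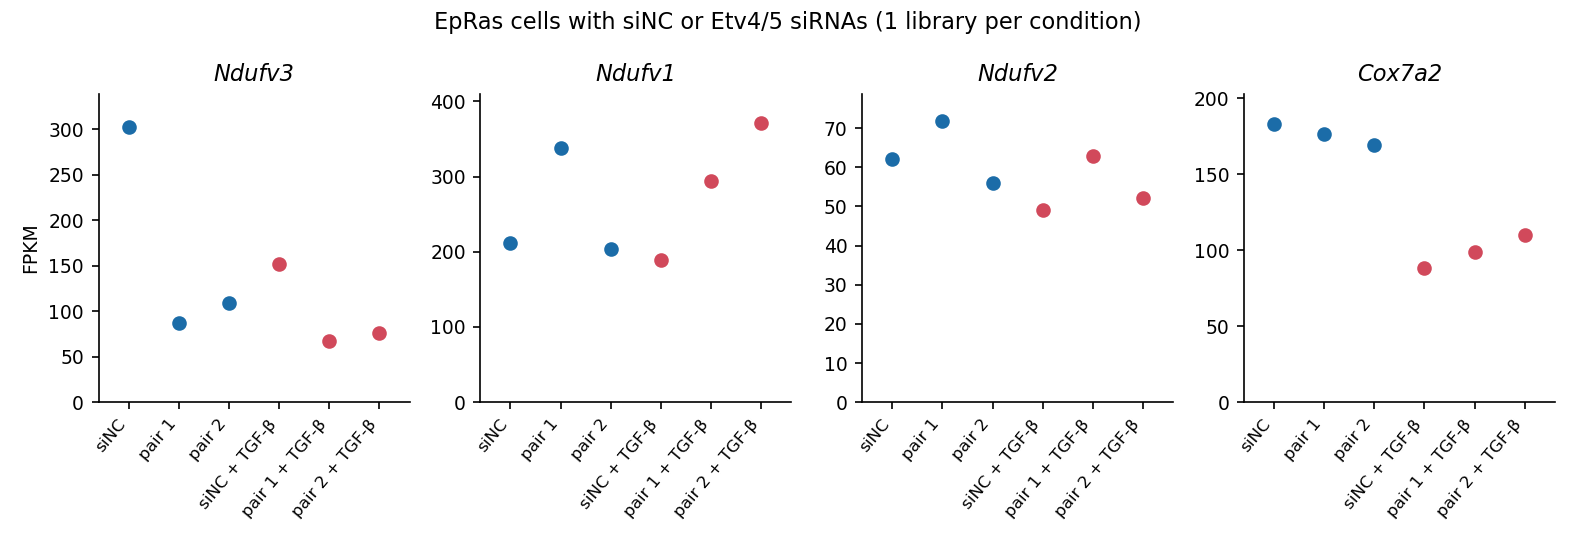
Expression level in FPKM (vertical axis, from 0) of Ndufv3, its neighbours Ndufv1 and Ndufv2, and Cox7a2 in EpRas cells with siNC or Etv4/5 siRNA pairs 1 and 2, without (blue) and with (red) TGF-β, 1 library per point. Ndufv3 lies lower with both pairs, and Cox7a2 lies lower with TGF-β in every siRNA condition.

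Several members were high in the untreated siNC library alone, with no matching difference under TGF-β. Atp5l was at 391 FPKM in that library and at 130.1 and 77.8 FPKM with the pairs, but at 139.8 against 171 and 123 FPKM with TGF-β, and Ndufb4 was at 496 FPKM in it, against 134 and 79.6 FPKM, and at 136 against 77.7 and 138 FPKM with TGF-β. Neither passed the test. Members with the ETS core in the promoter had a median change of -0.14 with the Etv4/5 siRNAs (10 of 17 below 0). The other 53 matched members had a median of -0.01 (28 of 53 below 0). The medians were -0.16 with the NRF1 core (6 of 9 below 0) and -0.11 with the YY1 core (8 of 11 below 0). These sets overlap: Atp5k, Atp5l, Cox6a1 and Uqcr11 held the ETS and NRF1 cores, and Atp5j the ETS and YY1 cores. Differences between the sets were not tested. With TGF-β the medians of members with and without the ETS core were -0.24 and -0.27 in EpH4 cells, -0.29 and -0.29 in EpRas cells, and -0.23 and -0.31 over the siRNA conditions, where 12 of 17 and 47 of 53 lay below 0. Sdhb, which was higher in EpRas than in EpH4 cells, did not pass the test with the Etv4/5 siRNAs. It was at 129, 212 and 220.5 FPKM and with TGF-β at 133, 148 and 178 FPKM (log2 fold change 0.51, adjusted p = 0.165). The other members called in both line comparisons did not pass the test either. Ndufs3 lay above siNC with both pairs in both conditions (135% to 158% of siNC). Ndufaf3 lay below it (50.5% and 37.8% without and 57.8% and 61.1% with TGF-β). Uqcr10, Atp5g3 and Atp5j2 lay on both sides. Of those called in only 1 comparison, Ndufaf2 lay above siNC, Ndufa8 and Ndufb10 below it and the others on both sides. A link to the line differences was not tested.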

How the data were processed

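Libraries were grouped by their labels. The authors aligned reads to mm10 with TopHat2 2.0.11 and Bowtie2 2.2.2.2 and ran Cuffdiff from Cufflinks 2.2.0 separately on untransfected and transfected libraries; the deposited values are FPKM per gene and library, with no per-sample column unused (0). How reads matching several gene copies were assigned is not given in the sources used here. Genes with OK status and a maximum of at least 5 FPKM (9100 and 9094 of 23284) were fitted as log2(FPKM + 1) with limma 3.58.1 in R 4.3.3, without a replicate block, with Benjamini-Hochberg adjustment over all genes tested and a call at an adjusted p under 0.05. Untransfected libraries shared 1 fit over 4 groups. The siRNA fits were additive. Fold changes are on that scale and understate changes of low genes, whereas ratios quoted as folds are of mean FPKM. Transcript lengths and gene positions came from GENCODE. Named were called members (up to 8 per direction), the most abundant member per complex, isoform pairs, the complex II subunits and, after their values were seen, members with TGF-β libraries apart in all sets and values beside them. The fitting code was tested on simulated data. Members and gene lists were chosen with earlier results of these data known. The values of 1 gene are not reported here.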

Additional observations from a re-analysis of the deposited data

Results flagged for a closer look

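Cox7a1 was singled out because its TGF-β effect differed between EpH4 and EpRas cells in the interaction term (adjusted p = 0.0371). Counted in the steps of its values as the smallest whole numbers, it went from 0 and 0 to 2 and 2 reads in EpH4 cells and went from 3 and 6 to 3 and 1 reads in EpRas cells. In the transfected EpRas cells it was at 8.97 FPKM under siNC, 6.01 under pair 1 and 10.9 under pair 2, and at 23.4, 8.87 and 5.94 FPKM with TGF-β, that is at 11, 10 and 17 reads and at 50, 15 and 9 reads. Of 15 other fits of the interaction, 11 lost the call.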

How the results depend on the processing

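The lean of the members to lower values with TGF-β kept its sign in every fit run, whereas single calls depended on the fit and on single libraries. Each called result was followed in each setting, as a case. Over the settings that kept every library, the call was kept in 184 cases and lost in 82. Calls were also lost in settings that left out libraries. None changed sign, and the cause of the lost calls was not tested. For EpRas against EpH4 without TGF-β, 11 members became 0 with a Tukey-Kramer test on FPKM and 5 with only the groups compared, and the median of 0.14 became 0.1138 with Tukey-Kramer, 0.1171 with the length trend removed and 0.1199 with a mean of at least 10 FPKM. With TGF-β, 10 became 0 and 3 under the first of these settings, and the median 0.042 with the length trend removed. For TGF-β in EpH4 cells, 2 became 0 with Tukey-Kramer, 4 with no filter, and 1 with a variance trend, the length trend removed, a mean of at least 10 FPKM, only the groups compared, a pseudocount of 0.1 or leaving out members that reach 5 FPKM in some groups only, and the median became -0.1363 with the length trend removed. In EpRas cells, 1 became 0 with Tukey-Kramer, no filter or only the groups compared and 2 with a variance trend or a pseudocount of 5, with medians of -0.246 (Tukey-Kramer), -0.1854 (length trend) and -0.2547 (pseudocount of 5). The interaction call became 0 with a variance trend, the length trend removed, a mean of at least 10 FPKM, no filter, a pseudocount of 5 or without members at 5 FPKM in some groups only, and its median became -0.0151 with a mean of at least 10 FPKM and with subunits only. Over the siRNA conditions, 2 became 0 with the length trend removed, no filter or a pseudocount of 0.1 and 7 with a pseudocount of 5, and the median became -0.187 with the length trend removed. The Etv4/5 count of 1 became 2 with a variance trend or the length trend removed and 0 with no filter.

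Leaving out a library or siRNA condition gave 1 to 14 and 0 to 13 members for the lines without and with TGF-β, 0 to 2 for TGF-β in EpH4 and in EpRas cells, 0 to 1 for the interaction and for TGF-β over the siRNA conditions, and 0 for the Etv4/5 siRNAs, with medians of 0.0372 to 0.1865, 0.0748 to 0.1572, -0.2947 to -0.1923, -0.3164 to -0.1945, -0.0906 to 0.0824, -0.3182 to -0.228 and -0.0166 to -0.0156 in the order of the report's comparisons. No Etv4/5 fit could be made without siNC. The counts of members with every treated library below were 43 to 58 in EpH4 cells, 47 to 52 in EpRas cells and 39 to 57 in the siRNA conditions when fewer libraries had to agree, while the share of all genes also rose, to 38 to 43.5%, 30.8 to 43.6% and 28.2 to 32.5%; these counts and the leaving out of members at 5 FPKM in some groups only were added after seeing the data. Same-numbered libraries did not deviate alike, with correlations of -0.347 to 0.0785, the lowest between untreated and treated EpRas cells. A negative value means that oppositely numbered libraries deviated alike, and a pairing in that order was not tested. With a block by replicate number the counts were 5 and 6 for the lines, 1 and 0 for TGF-β in EpH4 and EpRas cells and 0 for the interaction. At about 461 to 1655 reads for the median member (from annotated transcript length), depth limited Cox7a1 most, which had 0 to 12.7 reads on that scale in the untransfected libraries and 0 to 6 by the steps of its values.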
